A study of Mus musculus with 14 samples.

Results

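The genes described here are 10 regulators of pre-mRNA splicing that act in skeletal muscle, Rbm24, Rbm38, Rbfox1, Rbfox2, Mbnl1, Mbnl2, Mbnl3, Celf1, Celf2 and Ptbp1. They were chosen by gene symbol, all 10 were found among the 24016 transcripts of the deposited table, and all 10 passed the filter used for the tests, a mean of at least 1 FPKM over the libraries. C2C12 cells are an established line of mouse muscle precursors, which leave the cell cycle and fuse into myotubes after a switch to low-serum differentiation medium. Cells had been transfected with a control siRNA (siCtrl) or with a pool of siRNAs against Klf5 (siKlf5), a zinc-finger transcription factor, and poly(A) RNA was sequenced on days 0, 1, 2 and 3 of differentiation. There was 1 library per siRNA and day, 8 in all, and nothing in the labels says whether the libraries came from separate cultures. The values are levels of whole transcripts, so that the choice of exons was not measured.

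Splicing regulators bind short RNA elements in and around an exon and favour or block its inclusion. In skeletal muscle, Rbfox proteins, Mbnl proteins and the single-domain RNA-binding proteins Rbm24 and Rbm38 favour the exon patterns of differentiated fibres, Celf proteins favour embryonic patterns, and Ptbp1 represses muscle exons in dividing myoblasts. Loss of Mbnl activity on expanded repeat RNA underlies the missplicing of myotonic dystrophy.

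The 3 regulators that rose most during differentiation were Rbfox1, Rbm24 and Rbm38, and sequence before their deposited start sites is shown because Rbm24 and Rbm38 are paralogs whose courses differed. Each window covers the 250 bases before the start, from the mm9 genome and 5′ to 3′ on the strand of the gene. Capitals mark CAGCTG and CACCTG (E-boxes, the element of MyoD and myogenin), CACCC (the GT-box bound by Klf proteins), CCGCCC (the GC-box) and the Mef2 element (CTA and TAG with any 4 bases between them), each searched on both strands. The Rbm24 window is chr13:46513419-46513668, on the plus strand. The Rbfox1 window is chr16:7069678-7069927, on the plus strand, and lies inside the longer gene model of GENCODE vM1. For Rbm38 only chr2:172847153-172847183, on the plus strand, is printed, since transcript Rbm38-001 of GENCODE vM1 has an annotated UTR from 172847173 on. The Rbm38 window also lies inside the longer gene model of GENCODE vM1, which starts at 172845999.
Rbm24: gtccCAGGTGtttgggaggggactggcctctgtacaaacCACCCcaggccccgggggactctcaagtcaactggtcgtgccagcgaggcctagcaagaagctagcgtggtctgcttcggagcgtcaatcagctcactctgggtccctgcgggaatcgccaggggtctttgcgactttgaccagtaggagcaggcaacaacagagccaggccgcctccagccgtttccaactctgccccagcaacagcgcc
Rbm38: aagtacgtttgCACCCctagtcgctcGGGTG
Rbfox1: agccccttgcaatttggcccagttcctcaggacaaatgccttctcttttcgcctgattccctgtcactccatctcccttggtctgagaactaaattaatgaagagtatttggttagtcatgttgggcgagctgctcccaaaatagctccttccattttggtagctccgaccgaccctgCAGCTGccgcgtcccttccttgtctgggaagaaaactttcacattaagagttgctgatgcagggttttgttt
The Rbm24 window held 1 CACCTG, whose first base was 246 bases before the start, and 1 CACCC at 211 bases. The whole Rbm38 window held 2 CACCC, at 239 and 224 bases, and no E-box of these letters. The CACCC at 224 bases (as GGGTG) lies within the annotated UTR of Rbm38-001. Most of this window lies past the start of that UTR, and most sequence before the UTR was not searched. The lack of an E-box therefore cannot be set against the Rbm24 window. The Rbfox1 window held 1 CAGCTG, at 72 bases. Of 23950 such windows, 12.4% held CAGCTG, 16.9% CACCTG, 52.6% CACCC, 41.6% CCGCCC and 3.08% the Mef2 element. Of the 14309 windows of tested transcripts, the shares in the same order were 12.3%, 15.0%, 56.2%, 56.5% and 2.62%. Among the 10 regulators, all tested, 1, 1, 6, 3 and 0 windows held these elements. These matches describe letters only, and binding was not analysed here.

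FPKM values were scaled by the authors to a matrix total of 10000000 for each library, which makes them larger than ordinary FPKM, and were compared only among these libraries. The reads behind each value could be recovered, and libraries held between 7850439 (siCtrl, day 1) and 20301527 reads (siCtrl, day 2). Changes over days were tested with limma on log2(FPKM + 0.1) in 1 fit with day and siRNA as terms, so the siCtrl and siKlf5 libraries of a day stand in for replicates of that day and an adjusted p measures only the spread between these 8 libraries. A transcript was called at a Benjamini-Hochberg adjusted p of at most 0.05 over the 14312 transcripts tested. Single libraries were compared by their ratio, with a 95% exact (Clopper-Pearson) interval that covers counting error only and no test. Klf5 itself ranged from 223.8 to 933.1 FPKM in siCtrl cells and from 35.1 to 211.4 in siKlf5 cells. It was lower after knockdown on all 4 days, by 1.94 ± 0.20 (SE) on the log2 scale (limma adjusted p = 0.0244). That call was lost with no filter, without the mean-variance trend and in each of the 8 fits that left out 1 library, and in none of these did any transcript pass in the siRNA comparison.

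The regulators did not move as a group. From day 0 to day 3, 5 of the 10 rose (Rbfox1, Rbm24, Rbm38, Celf2 and Rbfox2) and 2 fell (Ptbp1 and Mbnl3), while Mbnl1, Mbnl2 and Celf1 did not pass. Of all transcripts tested, 12.8% were called higher and 17.6% lower, which is 1831 and 2516 transcripts, and after median-ratio scaling the split was 2175 and 1825. That scaling raised the median of all transcripts by 0.10 on the log2 scale and left the same 5 and 2 counts for the regulators. On day 1 against day 0, 3 had risen (Rbfox1, Rbm24 and Celf2) and 1 had fallen (Ptbp1), beside 6.82% higher and 9.93% lower of all transcripts. On day 2, Rbm38 and Rbfox2 had joined the rise, giving 5 higher and 1 lower, beside 11.5% and 11.6%. The median coefficient of the 10 on day 3 was 0.29 and that of all transcripts was -0.09. Leaving out the siCtrl day 3 library lowered the 5 rises to 2, and leaving out either day 0 library or the siKlf5 day 3 library lowered them to 3. The 2 falls became 1, Ptbp1, without any 1 of the day 0, day 2 or day 3 libraries. With 1 library of a day left out, the remaining one is assumed to vary like the other days. The libraries are bulk RNA, in which more cells of a type and more RNA per cell cannot be told apart.

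**Figure D1:**
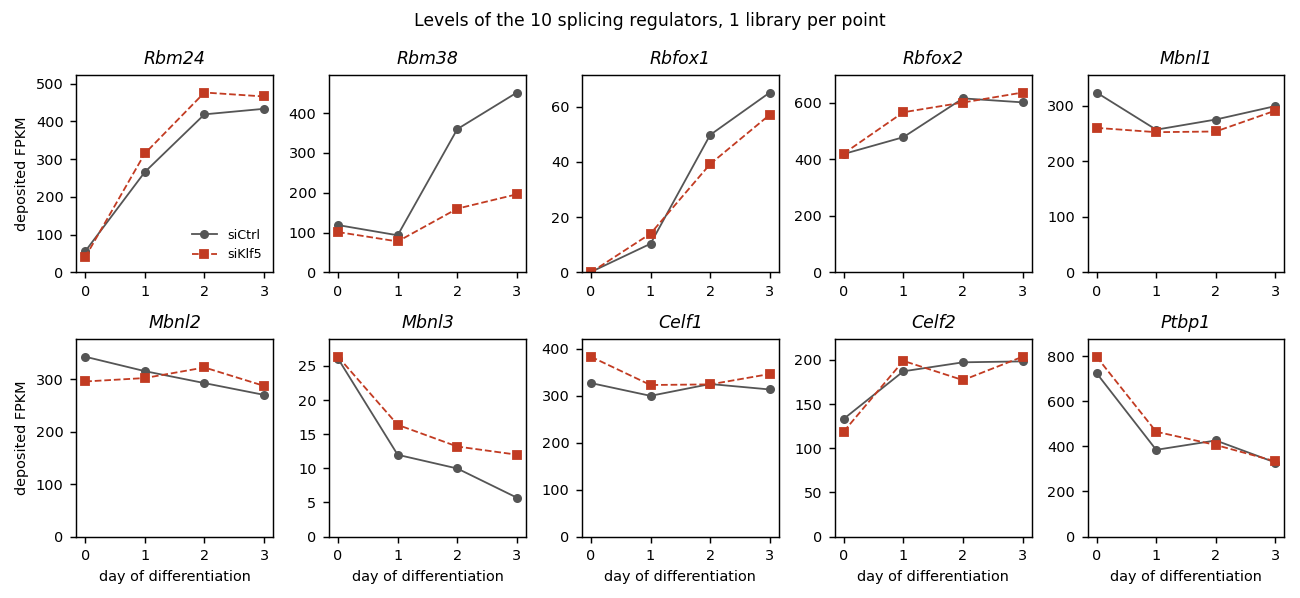
FPKM value as deposited (y axis, from 0, a separate scale for each gene) against day of differentiation (x axis) for the 10 regulators, with siCtrl as grey circles and siKlf5 as red squares, 1 library per point and no error. Rbm24 rises on day 1 in both series, Rbm38 rises on day 2 and stays lower in siKlf5, and Ptbp1 falls on day 1.

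Rbm24 (NM_001081425, chromosome 13 of mm9, 46513669 to 46526468, plus strand) encodes an RNA-binding protein that promotes inclusion of many muscle exons. Its FPKM value in siCtrl cells was 55.6, 265.9, 418.7 and 433.4 from day 0 to day 3. In siKlf5 cells the values were 40.1, 315.0, 476.5 and 466.0. Both series made their largest step by day 1 and were nearly level from day 2 on, and every later library was above both day 0 libraries. The rise from day 0 to day 1 was 4.78-fold in siCtrl (log2 ratio 2.26, 95% interval 1.82 to 2.70) and 7.83-fold in siKlf5 (2.97, 2.49 to 3.53). From day 2 to day 3 the log2 ratios were 0.05 (-0.12 to 0.22) and -0.03 (-0.22 to 0.16), within counting error of 0. Over both siRNAs Rbm24 rose by 3.25 ± 0.18 (SE) on the log2 scale by day 3 (limma adjusted p = 1.5e-05), and it was called in all 15 alternative fits, where the adjusted p lay between 5.2e-06 and 0.0140.

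Rbm38 (NM_019547, chromosome 2, 172847403 to 172860232, plus strand) is the paralog of Rbm24, a p53 target that stabilises the mRNA of the cell cycle inhibitor Cdkn1a and is needed for myoblast differentiation. Its FPKM values in siCtrl cells were 118.7, 93.1, 359.8 and 451.7 on days 0, 1, 2 and 3. In siKlf5 cells they were 101.2, 77.6, 160.0 and 196.1. Neither series rose on day 1, and the step came between day 1 and day 2, a day later than that of Rbm24. That step was 3.86-fold in siCtrl (log2 ratio 1.95, 95% interval 1.45 to 2.50) and 2.06-fold in siKlf5 (1.04, 0.46 to 1.72). From day 0 to day 3 the gain was 3.80-fold in siCtrl (1.93, 1.54 to 2.33) and 1.94-fold in siKlf5 (0.95, 0.48 to 1.48). The intervals of these 2 gains did not overlap. Over both siRNAs the rise by day 3 was 1.44 ± 0.26 (SE) on the log2 scale (limma adjusted p = 0.00494). That call was lost without the siCtrl day 0 library (1.12, adjusted p = 0.107), without the siCtrl day 3 library (1.12, adjusted p = 0.121), with no filter on low values (adjusted p = 0.113) and without the mean-variance trend (adjusted p = 0.0593), and over the 15 alternatives the adjusted p ranged from 0.00233 to 0.121.

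Between siRNAs, Rbm38 was lower in the siKlf5 library on all 4 days. The log2 ratios of siKlf5 to siCtrl for days 0 and 1 were -0.23 (95% interval -0.79 to 0.29) and -0.26 (-1.03 to 0.47), both within counting error of 0. For days 2 and 3 they were -1.17 (-1.51 to -0.83) and -1.20 (-1.54 to -0.87), which is 2.25-fold and 2.30-fold lower. The siCtrl library was 1.72 times as deep as the siKlf5 library for day 2 and 1.14 times for day 3, and the part of depth in these ratios was not tested. Of the 14312 transcripts tested, 918 (6.41%) had a lower ratio than Rbm38 on day 2 and 880 (6.15%) on day 3. Over the 4 days the mean difference was -0.72 ± 0.19 (SE) with a limma adjusted p of 0.314, so Rbm38 was not called, and over the 15 alternatives the adjusted p ranged from 0.211 to 0.823 and the coefficient from -0.88 to -0.55. An exact test that swaps the siRNA labels within each day gave p = 0.125, the smallest p that 4 days allow. In the fit of a steady trend over days, the slope of the Rbm38 ratio was -0.38 ± 0.10 (SE) per day (limma adjusted p = 0.811). Antisense transcripts Gm14453 and RP23-368M21.6 share 227 and 157 bases with annotated Rbm38 exons, and reads of both strands were counted, so their reads cannot be told from those of Rbm38.

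The paralogs were also set against each other within each library. Rbm38 stood at 2.14 times the level of Rbm24 in siCtrl and 2.52 times in siKlf5 on day 0, and at 0.350 and 0.246 times on day 1. By day 3 it had drawn level in siCtrl, at 1.04 times, and was at 0.421 times in siKlf5. The siKlf5 to siCtrl log2 ratio of Rbm38 minus that of Rbm24 was 0.24, -0.51, -1.36 and -1.31 for days 0 to 3. The mean of these was -0.73 ± 0.76 (SD over 4 days), below 0 on 3 of 4 days (exact within-day permutation test, p = 0.25, where 0.125 is the smallest possible). The plot of knockdown to control ratios by day shows the gap on days 2 and 3.

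**Figure D2:**
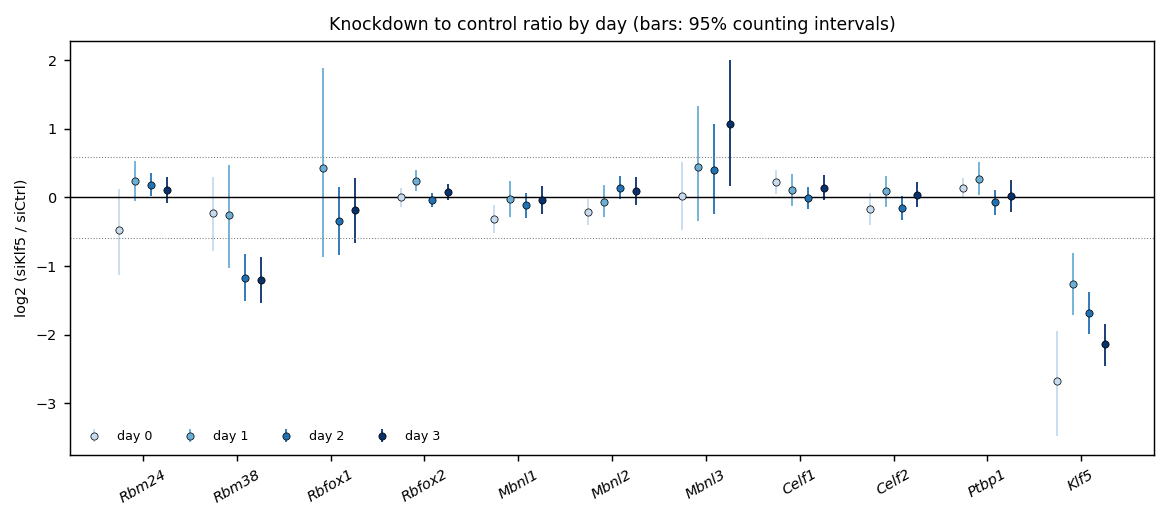
Log2 ratio of the siKlf5 to the siCtrl library (y axis) for each regulator and Klf5 (x axis) on days 0 to 3 (light to dark blue), with 95% exact counting intervals as bars and dotted lines at 1.5-fold. Rbfox1 on day 0 is left out because both libraries held at most 1 read, and apart from Klf5 the points beyond the dotted lines are Rbm38 on days 2 and 3 (-1.17 and -1.20) and Mbnl3 on day 3 (1.06).

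Rbfox1 (NM_183188, chromosome 16, 7069928 to 7412573, plus strand) encodes the Rbfox protein found mainly in muscle, heart and brain. It was nearly absent from myoblasts, with an FPKM value of 0.125 on day 0 in siCtrl cells, which is 1 read, and a listed 0 in siKlf5 cells. On days 1, 2 and 3 the values were 10.3, 49.7 and 65.1 in siCtrl and 14.0, 39.2 and 57.1 in siKlf5. Every step was upward in both series, with no overlap between days. Day 3 rested on 543 and 416 reads. In siCtrl cells the day 3 value was 521 times the day 0 value, a ratio over 1 read with a 95% counting interval on single reads of 93.1 to 20622, and on reads divided by 6 the interval of the log2 ratio starts at 4.52 and has no upper limit. In siKlf5 cells the day 3 value was 138 times an assumed floor of 3 single reads in the day 0 library, without counting error. The 95% counting interval of that fold starts at 112 on single reads, and on reads divided by 6 the interval of the log2 ratio starts at 4.18. Rbfox1 was called higher on day 3 (limma adjusted p = 5.1e-05) and in all 15 alternatives, and its fitted coefficient, between 5.09 and 9.24, depends on the pseudocount. The siKlf5 to siCtrl log2 ratios on days 1, 2 and 3 were 0.43, -0.34 and -0.19, each within counting error of 0.

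Rbfox2 (NM_001110829, chromosome 15, 76909420 to 76984242, minus strand), the broadly expressed Rbfox protein, was already at 418.9 FPKM in siCtrl and 420.5 in siKlf5 on day 0. On day 1 it stood at 478.3 and 566.5, on day 2 at 615.6 and 601.0 and on day 3 at 601.5 and 636.4, in the same order. The 4 libraries of days 2 and 3 lay above all 4 libraries of days 0 and 1. By day 3 it had risen 1.47-fold, or 0.56 ± 0.11 (SE) on the log2 scale (limma adjusted p = 0.00620). That call was lost without the siCtrl day 0 library (adjusted p = 0.0588), the siKlf5 day 0 library (0.0855), the siCtrl day 3 library (0.0763) or the siKlf5 day 3 library (0.0751), and without the mean-variance trend (0.0533), while the coefficient stayed between 0.51 and 0.67 over the 15 alternatives. Values are per exon length of 1 transcript per gene, with at most 3 reads per position counted, so shares between paralogs are approximate. The part of that cap was not tested. Rbfox1 made up 2.12% of the summed Rbfox1 and Rbfox2 level on day 1 in siCtrl cells and then 7.47% and 9.76%, against 2.41%, 6.12% and 8.23% in siKlf5 cells over the same days.

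Ptbp1 (NM_008956, chromosome 10, 79317177 to 79327180, plus strand), the polypyrimidine tract binding protein, was the most abundant of the 10 in myoblasts, at 725.4 FPKM in siCtrl and 798.3 in siKlf5. The day 1 values were 384.9 and 465.3, those of day 2 were 426.4 and 406.4 and those of day 3 were 328.4 and 333.9. All 6 later libraries were below both day 0 libraries, and the main step down was made by day 1. By day 3 Ptbp1 had fallen by 1.20 on the log2 scale (SE 0.11, limma adjusted p = 0.000231), which is 2.30-fold, and it was called lower in all 15 alternatives, with adjusted p between 0.000126 and 0.0241. Its neural paralog Ptbp2 was at 116.3 FPKM on day 0 and 116.0 on day 3 in siCtrl cells, and the ratio of Ptbp2 to Ptbp1 went from 0.160 to 0.353, and from 0.156 to 0.352 in siKlf5 cells. The 5 markers of dividing cells (Mki67, Top2a, Ccnb1, Cdk1 and Mcm2) fell as well, 5 of 5 called on day 3, beside 17.6% of all transcripts. Their summed level ranged from 651 to 2284 FPKM in siCtrl and from 832 to 2464 in siKlf5. Their part in the Ptbp1 result was not tested. Exons of Ptbp1 share 251 bases with the opposite-strand gene BC005764, 437 with Gm17134 and 85 with E130317F20Rik, whose reads cannot be separated.

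Mbnl1 (NM_001253710, chromosome 3, 60305174 to 60433670, plus strand) is the main Mbnl protein of adult muscle. Its 8 values were 323.6, 256.7, 275.0 and 299.2 FPKM in siCtrl and 260.0, 252.2, 253.5 and 291.1 in siKlf5 on days 0, 1, 2 and 3. The day 0 and day 3 libraries overlapped, and the coefficient for day 3 was 0.03 ± 0.11 (SE, limma adjusted p = 0.900). Mbnl2 (NM_207515, chromosome 14, 120674891 to 120830920, plus strand), a close relative prominent in brain, was at 342.9, 315.3, 292.5 and 270.0 FPKM in siCtrl and 295.6, 302.2, 322.3 and 287.2 in siKlf5. In siCtrl cells each day was below the one before, a log2 ratio of -0.34 (95% interval -0.54 to -0.16) from day 0 to day 3, whereas in siKlf5 cells that ratio was -0.04 (-0.25 to 0.16). The day 3 coefficient over both was -0.19 ± 0.12 (SE, limma adjusted p = 0.267). Before differentiation both genes were below control after knockdown, with siKlf5 to siCtrl log2 ratios of -0.32 (-0.52 to -0.11) for Mbnl1 and -0.21 (-0.41 to -0.02) for Mbnl2 that lay beyond counting error, and at the later time points the intervals of both genes held 0. Ratios above 0 beyond counting error were found for Celf1 on day 0 (0.23, 0.05 to 0.41), for Rbfox2 and Ptbp1 on day 1 (0.24, 0.09 to 0.39, and 0.27, 0.03 to 0.52) and for Rbm24 on day 2 (0.19, 0.02 to 0.35). Upper-quartile and median-ratio scaling shift the day 1 ratios by -0.035 and -0.065, after which the Ptbp1 interval holds 0. The share of all transcripts with an interval beyond 0 was not counted, so these ratios have no background beside them.

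Mbnl3 (NM_134163, chromosome X, 48466671 to 48559009, minus strand), the family member known to hold back myoblast differentiation, was much scarcer. Its FPKM value fell from 26.1 on day 0 to 12.0, 9.97 and 5.69 on days 1, 2 and 3 in siCtrl cells. In siKlf5 cells it was 26.3, 16.4, 13.2 and 12.0. All 6 later libraries were below both day 0 libraries, and from day 1 on each siKlf5 value was above the siCtrl value of the same day. Over both siRNAs it had fallen by 1.65 by day 3 on the log2 scale (SE 0.45, limma adjusted p = 0.0268). That call was lost without the siCtrl day 0 library (-1.34, adjusted p = 0.181), the siKlf5 day 0 library (adjusted p = 0.0943), the siCtrl day 2 library (0.0641), the siKlf5 day 2 library (0.0679), the siCtrl day 3 library (-1.27, adjusted p = 0.167) or the siKlf5 day 3 library (0.0722), and with no filter (0.0699). The siKlf5 to siCtrl log2 ratio was 0.02, 0.45 and 0.40 for days 0 to 2 and 1.06 for day 3 (95% interval 0.16 to 2.01), where the siKlf5 value was 2.09 times the siCtrl value. The mean over days was 0.48 ± 0.43 (SD over 4 days), higher on 4 of 4 days, with an exact within-day permutation p of 0.125, the smallest possible, and a limma adjusted p of 0.658. Mbnl3 was 7.45% of the summed Mbnl3 and Mbnl1 level on day 0 and 1.87% on day 3 in siCtrl cells, and 9.20% and 3.96% in siKlf5 cells.

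Celf1 (NM_198683, chromosome 2, 90780554 to 90859654, plus strand) is the protein that rises in myotonic dystrophy muscle and antagonises Mbnl proteins at many exons. It stood at 327.1, 299.8, 325.0 and 313.4 FPKM in siCtrl and 383.3, 322.9, 324.2 and 346.4 in siKlf5 cells on days 0 to 3. The days overlapped, with a day 3 coefficient of -0.10 ± 0.11 (SE, limma adjusted p = 0.498) that turned to 0.00 and 0.01 under upper-quartile and median-ratio scaling. The ratio of Mbnl1 to Celf1 was 0.989, 0.856, 0.846 and 0.955 in siCtrl and 0.678, 0.781, 0.782 and 0.840 in siKlf5 cells, lower in siKlf5 on each day. Celf2 (NM_001110228, chromosome 2, 6460744 to 6806042, minus strand) rose early, from 133.2 and 118.9 FPKM on day 0 in siCtrl and siKlf5 to 187.1 and 198.9 on day 1. The values were 197.3 and 177.1 for day 2 and 198.3 and 203.6 for day 3. Exons of Celf2 share 196 bases with the opposite-strand Gm17437, whose reads cannot be separated. All 6 later libraries were above both day 0 libraries, and the change by day 3 was 0.67 ± 0.12 (SE) on the log2 scale (limma adjusted p = 0.00522). The call was lost without the siKlf5 day 0 library (0.60, adjusted p = 0.0690), the siCtrl day 3 library (0.73, 0.0519) or the siKlf5 day 3 library (0.62, 0.0672).

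Against Klf5 knockdown, limma called none of the 10 regulators over the 4 days, beside 0.00699% of all transcripts called higher (1) and 0.0559% called lower (8). At an unadjusted p of at most 0.05 there was 1, Rbm38, beside 1374 of the 14312 transcripts, so 1 of 10 is near the background. None was called for a slope over days, where no transcript at all was called (0% in either direction), and Rbm38 was again the 1 regulator at an unadjusted p of at most 0.05, beside 694 of the 14312 transcripts. Past 1.5-fold in single libraries, no regulator was counted on day 0 or day 1. Transcripts with at most 3 reads in both libraries, such as Rbfox1 on day 0, were not counted as past the threshold, among the regulators or among all transcripts. All transcripts stood at 8.46% higher and 10% lower before differentiation, and at 15.3% and 10.2% a day later. On day 2, 0 were higher and 1 was lower (Rbm38), beside 6.95% and 12%. On day 3, 1 was higher (Mbnl3) and 1 lower (Rbm38), beside 10.1% and 11.7%, shares that 1 of 10 does not exceed. Counted within each siRNA from day 0 to day 3, 3 regulators were past 1.5-fold higher in siCtrl (Rbfox1, Rbm24 and Rbm38) and 2 lower (Ptbp1 and Mbnl3), beside 21.8% and 22.5%. In siKlf5 the same 3 with Celf2 and Rbfox2 made 5 higher, and the same 2 were lower, beside 21% and 22.9%. In siCtrl cells Celf2 and Rbfox2 lay just under the cutoff, at log2 ratios of 0.57 and 0.52, and passed it after either other scaling.

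The make-up of the 10 shifted with differentiation. Their summed level was 2472, 2303, 2970 and 2967 FPKM in siCtrl on days 0 to 3, and 2444, 2531, 2773 and 2830 in siKlf5. Ptbp1 ranked first on day 0 with 29.4% of the sum in siCtrl and 32.7% in siKlf5, and by day 3 it held 11.1% and 11.8%. From day 1 on Rbfox2 ranked first in every library, at 20.3% to 22.5%. Rbm24 went from 2.25% to 14.6% in siCtrl and from 1.64% to 16.5% in siKlf5. Rbm38 went from 4.80% to 15.2% in siCtrl, where it ranked second on day 3, and from 4.14% to 6.93% in siKlf5, where it ranked eighth. In the siCtrl day 3 library Rbm38, Rbm24, Ptbp1 and Celf1 lay between 313 and 452 FPKM, an order in which Rbm38 and Rbm24 (1.04 times) were nearly equal.

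**Figure D3:**
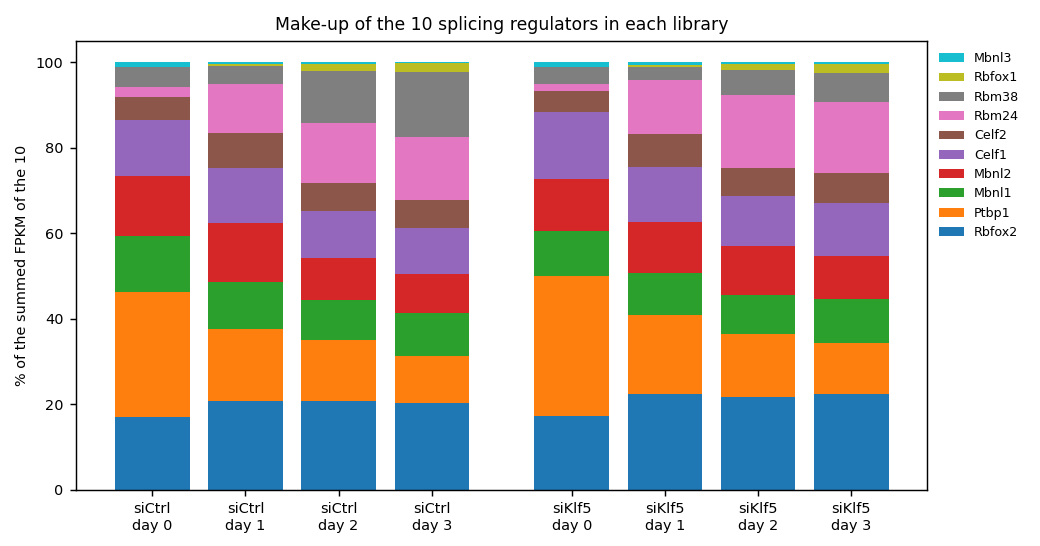
Share of the summed FPKM of the 10 regulators (y axis, percent, from 0) held by each one (colours) in the siCtrl and siKlf5 libraries of days 0 to 3 (x axis), 1 library per bar. Ptbp1 shrinks from 29.4% to 11.1% in siCtrl while Rbm24 and Rbm38 grow, and the Rbm38 segment on day 3 is 15.2% in siCtrl and 6.93% in siKlf5.

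Other splicing regulators mostly fell. Of 74 listed, 60 passed the filter. By day 3, 35 of these were called lower and 2 higher, beside 17.6% and 12.8% of all transcripts. The median coefficient was -0.52, beside -0.09 for all transcripts. After median-ratio scaling the counts were 28 and 3 and the median was -0.40. Without the mean-variance trend 16 were called lower, and with a day 0 or day 3 library left out 9 to 12 were. Those that rose were Msi2, a Musashi protein, by 1.32 ± 0.13 (SE), and Rbm20, the titin splicing regulator, by 1.03 ± 0.17, with limma adjusted p of 0.000286 and 0.00330. Rbm20 was at 77.1 and 75.7 FPKM on day 0 and at 153.6 and 159.1 on day 3 in siCtrl and siKlf5. The largest falls were Celf4 (adjusted p = 0.000468), Rbpms2 (log2 coefficient -1.48 ± 0.14, adjusted p = 0.000214) and the SR protein Srsf7 (-0.97 ± 0.11, adjusted p = 0.000468). Celf4, a Celf protein best known from neurons, went from 42.1 FPKM to 2.66 in siCtrl and from 43.0 to 2.47 in siKlf5, opposite to Celf2. None of the 60 was called between siRNAs, and 1 had an unadjusted p of at most 0.05, beside 1374 of the 14312 transcripts. A coefficient above 0 was found in 48 of 60, beside 7460 of the 14312, and the median was 0.08 beside 0.01. For several abundant ones the gap lay mainly on day 2. Hnrnpa1 was at 1247 FPKM in siCtrl and 1536 in siKlf5 on day 2, and at 1458 and 1457 on day 3. The siCtrl library of day 2 was 1.72 times as deep as the siKlf5 library, and at most 3 reads per position were counted. The part of depth in these coefficients was not tested. The epithelial regulator Esrp1 and Khdrbs2 were listed at 0 in all 8 libraries, and the neuronal Rbfox3 was at 0.698 FPKM or less.

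A list of 21 genes with exons that these regulators are known to control moved the other way. By day 3, 16 were called higher and 1 lower (Pkm), beside 12.8% and 17.6% of all transcripts. After either other scaling the counts were 16 and 0. Leaving out a day 0 or day 3 library left 10 or 11 higher and none lower. The median coefficient was 1.74, beside -0.09 for all transcripts. Leading rises were Cacna1s, the voltage sensor of muscle calcium release, by 6.36 ± 0.21 (SE), the Z-disc gene Ldb3 by 4.56 ± 0.12, and fast troponin T, Tnnt3, by 4.48 ± 0.23, with limma adjusted p of 1.9e-06, 5.8e-07 and 1.1e-05. Pkm, the pyruvate kinase whose alternative exons Ptbp1 selects, fell by 0.55 (SE 0.17, adjusted p = 0.0394). None of the 21 was called between siRNAs, and 2 had an unadjusted p of at most 0.05, near the background of 1374 of 14312 transcripts. A coefficient above 0 was found in 9 of 21, beside 7460 of the 14312, and the median was -0.01 beside 0.01. As 1 example, Cacna1s was at 383.8 FPKM in siCtrl and 286.6 in siKlf5 on day 3, and the list as a whole had no such lean.

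**Figure D4:**
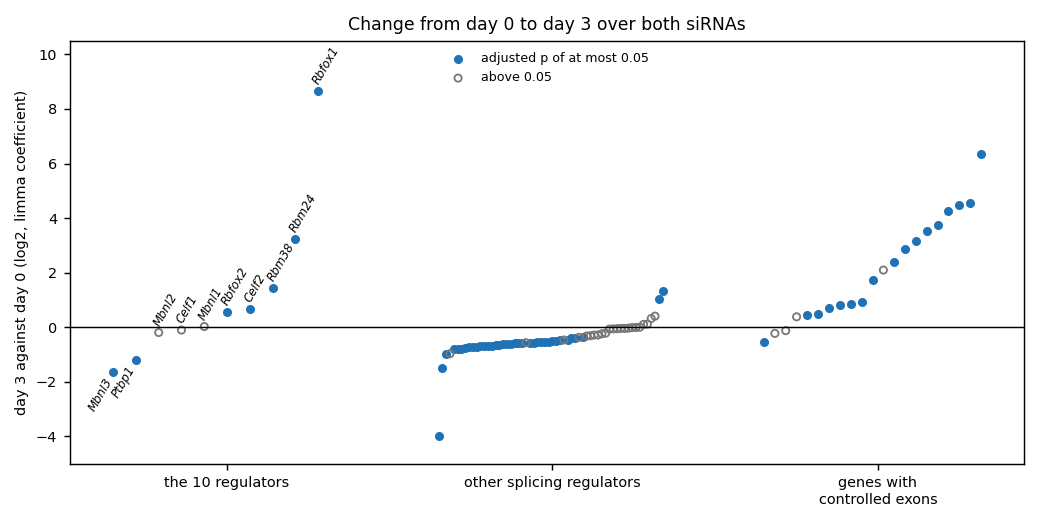
Limma coefficient of day 3 against day 0 over both siRNAs (y axis, log2) for the 10 regulators, the 60 other splicing regulators tested and the 21 genes with controlled exons (x axis, ordered within each list), filled where the adjusted p was at most 0.05. The regulators spread from -1.65 (Mbnl3) to 8.67 (Rbfox1), most other splicing regulators lie below 0, and most genes with controlled exons lie above 0.

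Muscle markers were present throughout. The summed level of 10 skeletal muscle markers ranged from 4944 to 17892 FPKM in siCtrl and from 4298 to 17879 in siKlf5. On day 3, 7 of 10 were called higher, beside 12.8% of all transcripts. Between siRNAs none of these 10 was called, and 6 had a coefficient above 0, beside 7460 of the 14312 transcripts. Myog was lower in siKlf5 on each day, at 2293 FPKM in siCtrl and 1386 in siKlf5 on day 3. The 6 neuron markers summed to between 361 and 810 FPKM in siCtrl and between 364 and 561 in siKlf5, with Snap25 at 0 in all 8 libraries. Tubb3 (273.5 to 703.6 FPKM) and Map2 (54.2 to 104.3) made up nearly the whole sum, while Syp was at most at 3.64, Elavl4 at 0.419 and Rbfox3 at 0.698. Endothelial, leukocyte, adipocyte and epithelial markers (4 each) summed to at most 38.1 FPKM in any library, with Plin1, Epcam and Krt18 at 0. The epithelial marker Cdh1 alone made up that highest sum. It rose from 4.63 on day 0 to 38.1 on day 3 in siCtrl, and from 1.65 to 14.9 in siKlf5. Its day 3 coefficient was 3.05 (limma adjusted p = 0.0129). The leukocyte marker Cd68 reached 23.5 FPKM, in siKlf5 on day 0. The part of all these markers in the results was not tested.

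The transcripts whose log2 values followed each changing regulator most closely over the 8 libraries were found among 11591 with a mean of at least 10. For Rbm24 they were the slow troponin gene Tnnt1 (Pearson r = 0.998), the collagen gene Col6a1 (0.996) and the muscle kinase gene Srpk3 (0.995). Rbfox1 was followed by Klhl41 (0.998), Cacna1s (0.997) and Lmod2 (0.997), genes of the sarcomere and triad. Nearest to Rbm38 were Ostm1 (0.988), Bod1 (0.981) and Hip1r (0.977). Bod1, a kinetochore gene, was at 249.4, 228.5, 402.8 and 515.4 FPKM in siCtrl and 234.3, 232.6, 288.5 and 310.7 in siKlf5, with the siKlf5 values below the siCtrl values on days 2 and 3 as for Rbm38. Ptbp1 was followed by 2610034B18Rik (0.997) and the mitotic genes Ercc6l (0.993) and Cdca3 (0.992), and Mbnl3 by Syncrip (0.990), 2310036O22Rik (0.979) and Tsc22d2 (0.979). Libraries share the course of differentiation, so these r values describe likeness only.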

How the data were processed

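Poly(A) RNA libraries were aligned to mm9 with STAR and counted with HOMER on the exons of RefSeq transcripts, both strands together, with at most 3 reads per position and 1 transcript per gene. The authors deposited FPKM values scaled to a matrix total of 10000000 per library, and log2 columns made from FPKM after adding 1 and a further number from 0 to 1. The deposited log2 values were used in 1 alternative, and 1 log2 column that names no day was not used. That alternative therefore lacked the siKlf5 day 1 library. The count normalization with DESeq2 that the study describes was not used here. Reads were recovered from FPKM and exon length, and all low values checked lay within 0.1 of a whole read. Recovered reads were clumped (totals of exactly 6 outnumbered those of 5), so intervals used reads divided by 6. Fits used limma 3.58.1 in R 4.3.3 with a mean-variance trend (3 residual degrees of freedom, 2 for the slope), with scipy 1.17.1, pandas 2.3.3 and numpy 2.4.6 under Python 3.11.15 for other steps and matplotlib 3.10.9 for plots. The siRNA comparison and the intervals were tried on simulated reads in units of 6. These had only counting error between libraries and the same fold on every day. The day and slope comparisons were not tried in this way. Coordinates are those of the deposited table, and gene models are GENCODE vM1. The regulators shared no run of 50 bases with other protein-coding genes. Besides the overlaps given for Rbm38, Ptbp1 and Celf2, exons of Mbnl2 share 86 bases with the opposite-strand Gm16661. Genes outside the 10 are named if they were called in the siRNA fit (at most 5 per list), among the 3 largest rises or 3 largest falls called on day 3, or among the 3 nearest patterns. Those named otherwise (Ptbp2, Rbfox3, Khdrbs2, Esrp1, Hnrnpa1 and single markers) were chosen after their values were seen. The regulators and lists were chosen with earlier results of these data known. The 6 ChIP samples were not analysed here.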

Additional observations from a re-analysis of the deposited data

How the results depend on the processing

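Fits were repeated under 15 alternatives (pseudocount, filter, scaling, trend, log2 columns and leaving out each library). For the regulators called on day 3, the 5 higher became 3 without the mean-variance trend and 2 to 5 with 1 library left out, and the 2 lower became 1 with no filter and 1 to 2 with 1 library left out. Calls were lost on leaving out a library of day 0, day 2 or day 3 but not one of day 1. The cause of these changes was not tested. Past 1.5-fold from day 0 to day 3, the 3 higher in siCtrl became 5 under upper-quartile and under median-ratio scaling, and the 5 higher in siKlf5 became 2 at a 2-fold threshold. No count of regulators called between siRNAs, or for a slope, changed. Coefficients near 0 turned sign without being called. Between siRNAs, Mbnl2 (-0.01) became 0.00056 under upper-quartile scaling and lay between -0.062 and 0.056 with 1 library left out. Rbm24 (0.02) lay between -0.059 and 0.18 with 1 library left out. With the log2 columns, which lack siKlf5 day 1, Mbnl2 became 0.0049 and Rbm24 -0.056. The FPKM fit without the siKlf5 day 1 library gave 0.0050 and -0.059, so these changes cannot be credited to the log2 values. From day 0 to day 3, Mbnl1 (0.03) lay between -0.10 and 0.15 with 1 library left out, and Celf1 (-0.10) became 0.0038 and 0.0095 under upper-quartile and median-ratio scaling. The siRNAs were compared within days, since day is a term of each fit, and the labels give no replicate numbers for a further block. Rbfox1 on day 0 and Mbnl3 rest on few reads, and exon inclusion was not measured.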
